A study of Mus musculus with 4 samples.

Results

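The variable (Trbv) segments of the mouse T cell receptor beta locus on chromosome 6 were measured here in the same cells by 2 readouts, the unique molecular identifiers (UMIs, each standing for 1 captured transcript) of the gene expression libraries and the assembled receptor contigs of the receptor libraries. The members were all features whose symbol begins with Trbv, which were 35 of the 32285 features in the count tables. They were compared with the V gene named on the contig in kept cells, meaning barcodes with at least 500 genes, at most 10% mitochondrial UMIs and exactly 1 beta chain (TRB) contig. Of 9996 barcodes in mouse 1 and 9733 in mouse 2, 5993 and 6332 were kept. A further 2901 and 2405 barcodes passed the same filters on genes and mitochondrial UMIs and carried no receptor contig.

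The cells were CD4 T cells from spleens of donor mice labelled B6.NOD-(D17Mit21-D17Mit10)/LtJ, called B6.H2g7 in the protocol, and given as 6-8 weeks old. Column-purified cells, 5000000 in number, were transferred into NOD.Rag1null hosts, which have no T or B cells of their own, and living CD4+ TCRβ+ cells were sorted from the host spleens after 14 days. Each of the 2 hosts gave 1 gene expression library and 1 receptor library by the 10x 5′ v2 protocol. All samples share the same donors' strain, host and time, so the design has no treated and control group. Whether cells of the 2 donors were pooled is not stated in the sources used here.

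A beta chain gene is assembled in the thymus by joining 1 V, 1 D and 1 J segment, and the joined exon is transcribed from the promoter of the chosen V segment and spliced to a constant gene, Trbc1 or Trbc2. A T cell usually expresses 1 productive beta chain, because a productive rearrangement halts rearrangement of the other allele, but the other allele can hold a non-productive rearrangement. V segments that lie between the chosen V segment and the D segments are cut out of the chromosome, while those upstream of it stay. The first and second complementarity-determining regions (CDR1 and CDR2) are written in the V segment, whereas the third (CDR3) spans the junction.

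The V regions of all 16034 TRB contigs were compared with the Trbv segments of the GENCODE M21 annotation (GRCm38), because 2 of the 22 V calls did not correspond to a single feature of that name. Every 15-base word of the V region was found in the assigned segment for 16023 contigs. The name of the call and the segment holding its sequence differed for 168 contigs. Of these, 167 were all contigs called TRBV10, whose V region lay in Trbv4 (GRCm38 chromosome 6, 41059394 to 41059886, plus strand). Trbv10 itself (41091940 to 41092228, plus strand) is annotated as a pseudogene, and the transcripts of Trbv4 and Trbv10 were identical at 60.1% of 271 aligned bases. The stretch from the start of the V region to the end of CDR2 is shown for the call and for both segments, with CDR1 and CDR2 as marked in the contig table in capitals and Trbv10 in lower case throughout.
contig call TRBV10: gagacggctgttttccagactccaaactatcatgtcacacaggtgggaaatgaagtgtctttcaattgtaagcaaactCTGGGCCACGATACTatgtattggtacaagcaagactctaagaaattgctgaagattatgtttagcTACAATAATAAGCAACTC
germline Trbv4: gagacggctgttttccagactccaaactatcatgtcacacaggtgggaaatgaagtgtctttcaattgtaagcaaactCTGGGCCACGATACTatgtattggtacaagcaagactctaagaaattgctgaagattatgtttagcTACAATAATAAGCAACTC
germline Trbv10 first bases: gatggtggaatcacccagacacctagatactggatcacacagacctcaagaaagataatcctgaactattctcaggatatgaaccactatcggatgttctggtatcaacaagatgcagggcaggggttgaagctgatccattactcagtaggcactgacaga

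The other call without a single feature was the combined call TRBV12-2+TRBV13-2, carried by 1237 contigs. The V region of 1236 of them lay in Trbv13-2 (41121396 to 41121832, plus strand) and 1234 held the sequence shown next. The remaining contig lay in Trbv13-3. Trbv12-2 (41118851 to 41119364, plus strand) is the neighbour upstream of Trbv13-2, and the transcripts of these neighbours were identical at 63.5% of 323 aligned bases. The sequence of the call TRBV12-2 is given for comparison. TRBV26, the most frequent call, is also shown. Capitals again mark CDR1 and CDR2.
contig call TRBV12-2+TRBV13-2: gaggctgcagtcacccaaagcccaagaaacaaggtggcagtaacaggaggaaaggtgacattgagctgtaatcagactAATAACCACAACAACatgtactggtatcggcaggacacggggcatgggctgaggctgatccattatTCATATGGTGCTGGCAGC
contig call TRBV12-2: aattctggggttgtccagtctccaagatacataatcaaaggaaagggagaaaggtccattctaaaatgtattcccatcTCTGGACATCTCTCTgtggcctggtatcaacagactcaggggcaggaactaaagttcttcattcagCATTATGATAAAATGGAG
contig call TRBV26: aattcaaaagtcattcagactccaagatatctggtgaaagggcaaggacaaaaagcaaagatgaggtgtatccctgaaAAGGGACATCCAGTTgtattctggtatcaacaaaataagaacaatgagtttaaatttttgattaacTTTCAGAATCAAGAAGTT

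The gene expression libraries held 70092822 UMIs in mouse 1 and 75940181 in mouse 2, and the kept cells had medians of 5596 and 6219.5 UMIs. The label CD4 T cell was checked on kept cells: Cd4 was detected in 84.1% and 86.9%, Cd3e in 98.5% and 98.8%, Cd79a of B cells in 0.167% and 0.332%, and no kept cell had a UMI of Cd8a, which allows shares of cells with a UMI of up to 0.0501% and 0.0474%. Cd8a had no UMI in any other class of barcode either, so its absence is no check of CD8 cells here. The other CD8 gene, Cd8b1, was at 9.09 and 8.55 CPM (UMIs per 1000000) in kept cells. The libraries of the 2 mice shared 166 barcode sequences, and 63 clonotypes, defined by the same TRBV, TRBJ and TRB CDR3 nucleotides, occurred in both mice. Doublets were not called: cells with 2 TRB contigs, 708 in mouse 1 and 702 in mouse 2, were kept apart and are described separately. With 1 group of 2 mice no test over mice was run for the shares and levels, since an exact permutation test over 2 pairs cannot go below p = 0.5. Each share is given for each mouse, with its exact (Clopper-Pearson) 95% interval where it matters, and these intervals cover counting error only.

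Trbv transcripts were found in nearly every kept cell. Kept cells carried 79635 Trbv UMIs in mouse 1 and 92875 in mouse 2, a mean of 13.3 and 14.7 per cell, and 1.44% and 0.742% of them had none. Trbv UMIs outnumbered those of Trbc1 and Trbc2 together by 2.10 and 2.39 to 1 in these 5′ libraries. In the annotation 22 of the 35 members are V genes and 13 are pseudogenes, and 1, Trbv31, lies on the minus strand beyond the constant genes. UMIs in kept cells were found for 27 members, which included all 22 V genes and 5 pseudogenes. The other 8 (Trbv6, Trbv7, Trbv8, Trbv9, Trbv11, Trbv18, Trbv25 and Trbv27) had none.

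By sequence, 21 segments had contigs in kept cells, and 6 members had UMIs in kept cells without any contig. The 3 highest of these 6 were Trbv24 with 287 UMIs in mouse 1 and 526 in mouse 2, Trbv22 with 75 and 42, and Trbv21 with 34 and 20. Trbv24 and Trbv22 are annotated as pseudogenes and Trbv21 as a V gene. The other 3 (Trbv10, Trbv12-3 and Trbv28) had at most 11 UMIs in a mouse. Trbv10, the segment whose name the contigs of Trbv4 carried, had 1 UMI in each mouse.

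The leading Trbv feature of a cell, meaning the single highest feature with at least 2 UMIs, could be named in 5604 kept cells of mouse 1 and 6020 of mouse 2. Among the rest, 253 and 201 cells had a highest value of 1 UMI, 50 and 64 had a tie at 2 UMIs or more, and 86 and 47 had no Trbv UMI. The leading feature had the name on the contig in 98.0% of cells in mouse 1 and 97.9% in mouse 2 (mean 97.9% ± 0.05, SD, n = 2 mice). With the contig named by its sequence, a comparison added after the TRBV10 calls had been seen, the match was 98.8% in both mice, with intervals of 98.5 to 99.1% and 98.4 to 99.0%. Either feature of the combined call TRBV12-2+TRBV13-2 still counted as a match there, although nearly all of its contigs held Trbv13-2. Trbv12-2 led in 67 cells of this call in mouse 1 and 136 in mouse 2, so a match to the contig's segment alone would be lower.

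Among the 12 V calls with at least 100 kept cells in each mouse, the match was close to complete for all but a pair. TRBV26 matched in 99.5% and 99.7% of cells with a leading feature, TRBV23 in 99.7% and 99.2%, and TRBV31 in 100% and 99.0%. TRBV16 (99.4% and 100%), TRBV14 (100% and 99.4%), TRBV13-3 (99.0% and 100%), TRBV13-1 (99.2% and 100%) and TRBV1 (99.3% and 99.5%) behaved likewise, and TRBV19 (98.8% and 97.0%) and TRBV2 (97.7% and 97.3%) were slightly lower. The lowest of the 12 were TRBV5, with 93.9% in each mouse, and the combined call TRBV12-2+TRBV13-2, with 93.6% (89.8 to 96.3%) and 95.4% (92.7 to 97.4%), although either of its features counted as a match. Many of their cells had no leading feature and were not compared. One was named in 164 of 238 and 214 of 277 TRBV5 cells, and in 249 of 381 and 349 of 461 combined-call cells. For TRBV26 it was named in 2015 of 2084 and 1923 of 1960 cells. TRBV5 and the combined call were picked by their values, and the intervals count each cell as independent. They therefore do not test a difference from TRBV26.

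Of the 9 rarer calls with at least 20 cells in each mouse, TRBV10 stood apart: it matched by name in 0 cells, and by sequence in 92.3% of 52 cells in mouse 1 and 96.2% of 53 in mouse 2. TRBV13-2 matched in 24 of 24 cells in mouse 1 but in 86.5% of 37 cells in mouse 2, with intervals that overlapped (85.8 to 100% and 71.2 to 95.5%). TRBV15 was the third lowest, at 94.6% and 96.6%. The highest were TRBV17, at 100% in both mice, TRBV29, at 100% and 99.7%, and TRBV3, at 98.5% and 100%. Named by sequence, 20 of the 21 calls with at least 20 cells in each mouse matched in at least 90% of cells in both mice. For the combined call either feature counted.

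Cells whose leading feature was not that of the contig were few and had thin contigs. By sequence, with either feature of the combined call counted as a match, they numbered 65 in mouse 1 and 75 in mouse 2. The median contig UMI count was 7 and 8 in these cells, against 18 and 19 in matched cells. Contigs of 1 or 2 UMIs made up 13.8% and 14.7% of unmatched cells and 0.650% and 0.639% of matched ones. In 10 of the unmatched cells of each mouse the contig's own segment had no UMI.

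The level of a cell's own Trbv feature differed between V calls about as much as the contig UMIs did, except for 4 calls. For the combined call the own level is that of Trbv12-2 and Trbv13-2 together, and for TRBV10 it is that of Trbv4. The plot of own-segment UMIs against contig UMIs shows most calls on a common line. The own feature of the 17 other calls that had 20 cells or more in both mice held between 0.567 and 0.773 UMIs per contig UMI. The ratio was 0.646 in mouse 1 and 0.705 in mouse 2 for TRBV26, 0.685 and 0.728 for TRBV23 and 0.648 and 0.657 for TRBV31.

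Below this range lay TRBV5 at 0.185 and 0.213, the combined call at 0.245 and 0.297 (its 2 features together), TRBV10 at 0.285 and 0.401 (its Trbv4 feature) and TRBV13-2 at 0.410 and 0.433. For each of these 4, which were singled out after their values were seen, both mice lay below the lowest value of the other 17. Their contigs were not thin, with mean contig UMIs between 15.2 and 23.0 against 11.0 to 52.9 over all 21 calls. The own feature had no UMI in 15.5% and 9.39% of TRBV5 cells, and neither of the 2 features had one in 11.8% and 4.77% of combined-call cells, whereas no other call outside the 4 exceeded 4.17% in a mouse.

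**Figure D1:**
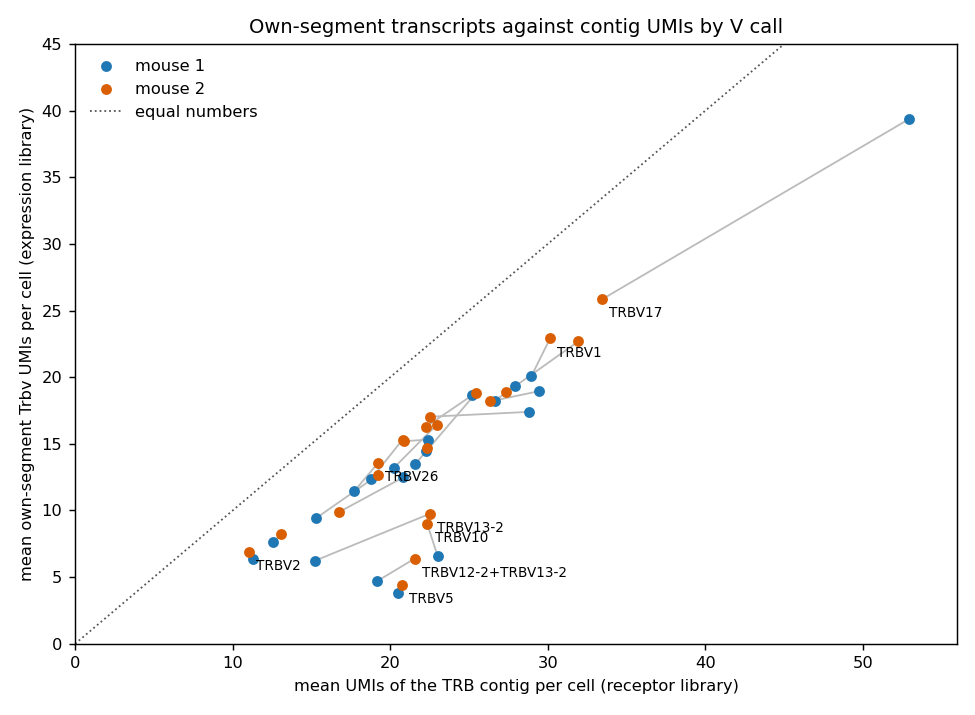
Mean UMIs of the own Trbv feature per kept cell (vertical axis) against mean contig UMIs (horizontal axis) for each V call with at least 20 cells in each mouse; points are calls, colours are the 2 mice, a grey line joins the same call and the dotted line marks equal numbers. TRBV5, the combined call, TRBV10 and TRBV13-2 lie below the other 17 calls, whose ratio was 0.567 to 0.773. The combined call is placed by Trbv12-2 and Trbv13-2 together.

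In UMIs per cell, the own feature was highest in TRBV17 cells, with 39.4 in mouse 1 and 25.8 in mouse 2, on 36 and 25 cells. Next came TRBV1 (20.1 and 22.9), TRBV15 (18.3 and 22.7), TRBV16 (19.3 and 18.9), TRBV13-1 (18.9 and 18.2), TRBV14 (18.7 and 16.3) and TRBV29 (17.4 and 17.0). The middle of the order held TRBV23 (15.3 and 15.2), TRBV13-3 (13.2 and 16.4), TRBV31 (14.4 and 14.7), TRBV26 (11.5 and 13.6) and TRBV19 (9.42 and 12.7). The order closed with TRBV13-2 (6.24 and 9.76), TRBV12-1 (7.63 and 8.20), TRBV10 (6.56 and 8.97), TRBV2 (6.38 and 6.90), the combined call (4.69 and 6.39) and TRBV5 (3.78 and 4.42).

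Neighbours in this order could rarely be told apart, since 18 of 20 neighbouring pairs overlapped between the mice. The exceptions were TRBV17 above TRBV1 and the combined call, with both of its features counted, above TRBV5. Trbv13-2 alone, the segment of the combined-call contigs, had 2.99 and 3.67 UMIs per cell of that call, below the level of TRBV5 in each mouse. TRBV2 was low in both readouts, with 11.3 and 11.0 contig UMIs per cell, and its ratio of 0.567 and 0.627 stayed with the other calls. Relative to TRBV26, TRBV5 stood at 0.328 and TRBV1 at 1.72, as means over the mice. Within a call, cells with more contig UMIs also had more own UMIs, with a Spearman rho between 0.755 and 0.980 over the cells of each call and mouse. Both readouts come from the same barcode and share its depth, so this is a description.

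TRBV5 and TRBV10 cells had UMIs of a further feature of the same stretch of chromosome. The long non-coding gene 5830405F06Rik (41055883 to 41063102, plus strand) spans Trbv4 and Trbv5 on the same strand, and its exons overlap those of both. It had a mean of 4.03 and 3.98 UMIs in TRBV10 cells and 0.94 and 0.83 in TRBV5 cells, against 0.0262 and 0.0279 in all other kept cells. TRBV5 and TRBV10 cells were 4.99% and 5.35% of kept cells and held 75.9% and 74.1% of its UMIs. Whether its UMIs come from an RNA apart from the rearranged Trbv4 and Trbv5 transcripts was not tested. Its part in the low Trbv4 and Trbv5 levels was not tested either.

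In combined-call cells, whose contigs held Trbv13-2, both features were usually present. Both Trbv12-2 and Trbv13-2 had UMIs in 58.5% of these cells in mouse 1 and 70.3% in mouse 2, only Trbv13-2 in 16.5% and 15%, only Trbv12-2 in 13.1% and 9.98%, and neither in 11.8% and 4.77%. Trbv12-2 took 36.3% and 42.5% of the pair's UMIs there. It took 11.7% and 14.2% in cells with the plain call TRBV13-2, whose V sequence is the same segment, and 99.9% in cells with the call TRBV12-2 in both mice. The median contig length was 570 and 568 bases for combined calls, 528 bases in both mice for TRBV13-2 calls and 568 and 570 for TRBV12-2 calls. Combined-call contigs were thus as long as those of TRBV12-2 while carrying the Trbv13-2 V region.

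A second Trbv segment, meaning a Trbv feature other than the contig's with at least 2 UMIs, was found in 972 kept cells of mouse 1 (16.2%, interval 15.3 to 17.2%) and 1236 of mouse 2 (19.5%, 18.6 to 20.5%), a mean of 17.9% ± 2.33 (SD, n = 2 mice). Named by sequence, which moves Trbv4 in TRBV10 cells to the own side, the shares were 15.5% and 18.9%. With a minimum of 1 UMI the shares by name were 40.9% and 45.2%, and with 3, 5 and 10 UMIs they were 8.79% and 10.4%, 2.77% and 3.85%, and 0.434% and 0.569%. Second segments were thus mostly at low level, and by sequence only 12 and 10 cells had one at 10 UMIs or more. All other-segment UMIs together made up 6.94% and 7.51% of the Trbv UMIs of kept cells by name, and 6.44% and 6.91% by sequence.

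Depth and chain number moved with the second segment. By sequence, cells with one had medians of 6397 and 6814 UMIs, against 5486 and 6078 in cells without. After thinning every cell to 3000 UMIs, which left out 591 and 335 shallower cells, the share by name was 7.90% and 8.17%. Cells with a second segment had 2 alpha chain (TRA) contigs in 15.4% and 12.5% of cases, against 12.4% and 10.7% without. In 65 and 71 cells the second segment was above the own one. The most abundant segment, Trbv26, served as a comparison: in cells with a V call upstream of it, at least 1 Trbv26 UMI was found in 6.02% and 5.73% and at least 2 in 0.817% and 1.22%. No cell type without beta chain transcripts was set beside these shares, and the part of free RNA in them was not tested.

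Second segments fell on 318 pairs of V call and feature, of which 154 occurred in both mice and 101 in a single cell. The most frequent pair by name was TRBV10 with Trbv4, in 49 and 52 cells, and is the naming difference described for the contigs. It was followed by TRBV13-3 with Trbv12-2 in 25 cells of mouse 1 and 71 of mouse 2, spread over 6 and 20 clonotypes. TRBV3 with Trbv31 was found in 5 and 86 cells, and the 86 cells of mouse 2 were 1 clonotype. TRBV26 with Trbv12-1 (15 and 43 cells), TRBV14 with Trbv12-2 (34 and 23) and TRBV26 with Trbv24 (31 and 24) completed the 6 most frequent pairs.

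**Figure D2:**
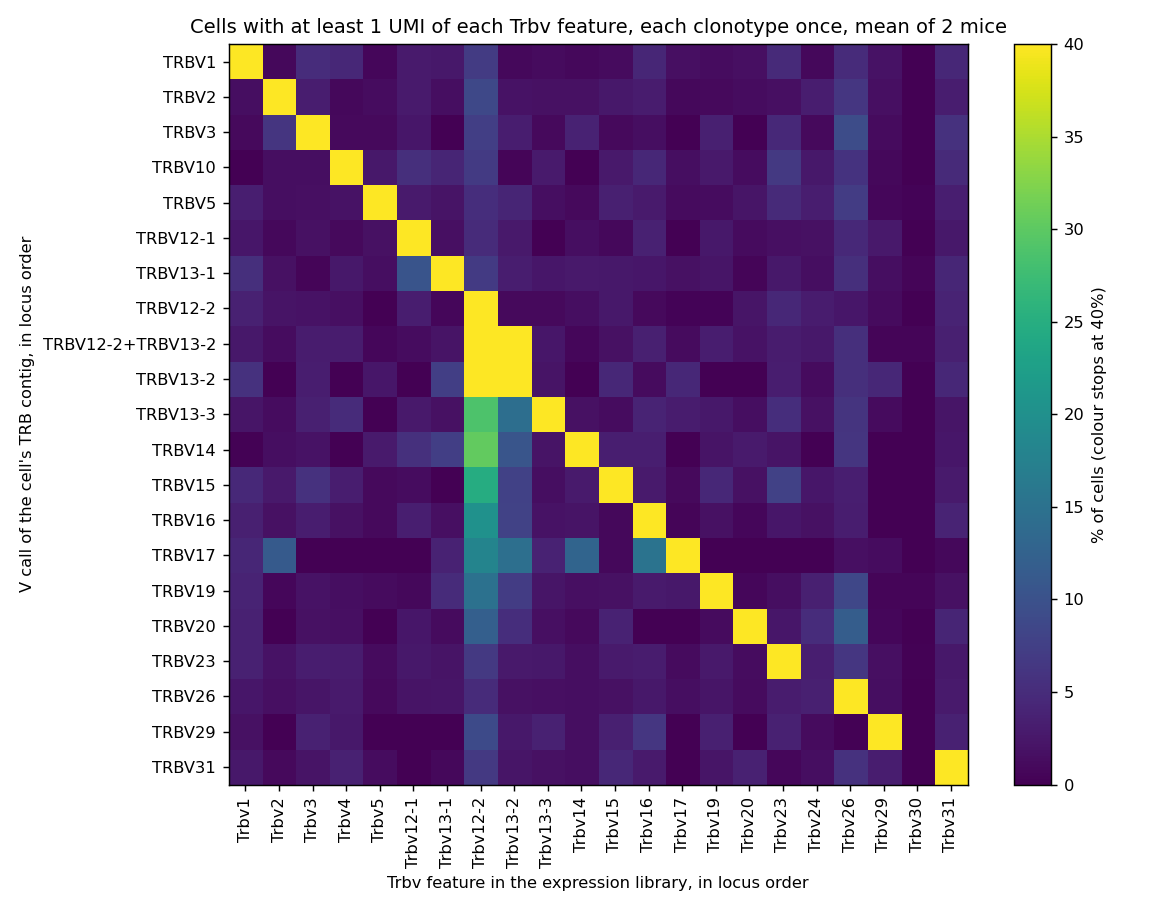
Share of kept cells with at least 1 UMI of each Trbv feature (columns, in chromosome order) for each contig V call (rows, in the same order), each clonotype counted once, as the mean of the 2 mice in percent (the colour stops at 40%); the diagonal holds the own feature. Apart from the diagonal, Trbv12-2 is filled most in the rows of the combined call and TRBV13-2, and less in those of the next calls downstream, TRBV13-3 to TRBV17, and the TRBV10 row is filled at Trbv4.

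Trbv12-2 as an extra transcript followed the position of the contig's V segment. In cells whose V segment was 1 of the next 5 downstream of the Trbv12-2 and Trbv13-2 pair (TRBV13-3, TRBV14, TRBV15, TRBV16 and TRBV17), at least 1 Trbv12-2 UMI was found in 30.5% in mouse 1 (26.9 to 34.2%) and 38.5% in mouse 2 (35.0 to 42.0%). In cells with 1 of 7 V calls upstream the shares were 4.20% and 5.60%, and with 1 of 6 calls further downstream they were 5.31% and 6.07%. These intervals count each cell as independent, and the sets were drawn from these values, so they do not test the difference between sets.

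The pattern was present when depth and clone size were levelled. At 3000 UMIs per cell the shares were 19.4% and 23.4% in the next 5, 1.92% and 2.81% upstream and 3.57% and 3.06% further downstream. With each clonotype counted once they were 18.0% and 32.0%, 5.40% and 8.00%, and 5.06% and 6.91%. By that count TRBV19 (8.19% and 21.7%) and TRBV20 (8.51% and 15.7%), the nearest of the calls further downstream, lay between the sets. Trbv12-1, the neighbour upstream of Trbv13-1, was found by the same count in 10.4% and 10.3% of TRBV13-1 cells. The share was 3.17% and 3.09% for the 5 calls upstream of Trbv12-1. Over the next 5 calls downstream of Trbv12-1, TRBV13-1 included, it was 3.66% and 3.14%, so that set did not show the pattern of Trbv12-2. Trbv13-2 showed the order of Trbv12-2 at a lower level. Over all cells it was found in 11.3% and 12.1% with the next 5 calls, 2.00% and 2.42% upstream and 2.28% and 2.45% further downstream. The sets of calls were drawn after these values had been seen.

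Cells of a clonotype share the beta chain junction, and the clonotypes were used to ask whether second segments recur among such cells. Common descent of these cells was not tested. Among kept cells, 140 clonotypes of mouse 1 and 113 of mouse 2 had at least 5 cells, together 34.7% and 35.8% of kept cells. With the contig named by its sequence, their most frequent second feature was present at 2 UMIs or more in at least 80% of cells in 3 and 4 clonotypes, in at least 50% in 16 and 14, and in under 10% in 80 and 58. No cell had a second feature at that level in 70 and 49 clonotypes. Single-cell clonotypes carried a second segment by sequence in 16.4% and 19.4% of cells and expanded ones in 15% and 18.5%.

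The 7 clonotypes at or above 80% held 55 cells. The largest, 18 cells of mouse 2 with TRBV5 and TRBJ2-2, had Trbv17 in 15 cells (83.3%), against 0.811% of the other kept cells of that mouse whose contig is not TRBV17. In 10 cells of mouse 1 with TRBV16 and TRBJ2-5, Trbv1 was found in 8 (80%). In 7 cells of mouse 1 with TRBV19 and TRBJ2-2, all 7 had Trbv17. The other 4 had 5 cells each: TRBV12-2 with Trbv24 in 5 of 5, and TRBV3 with Trbv31, TRBV1 with Trbv16 and TRBV23 with Trbv3 in 4 of 5. Just below the 80% line lay the largest such clonotype, 110 cells of mouse 2 with TRBV3 and TRBJ2-7, of which 86 (78.2%) had Trbv31. None of the 48 other TRBV3 cells of that mouse and 1.22% of its other kept cells whose contig is not TRBV31 did. A clonotype of 53 cells with TRBV20 and TRBJ2-7 in mouse 2 had Trbv31 in 73.6%. Chosen after their values were seen, 366 cells of mouse 2 with TRBV29 and TRBJ2-3 had Trbv24 in 9.56%, while 88 cells of mouse 1 with TRBV14 and TRBJ2-4 had Trbv19 in 42.0%.

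The CDR3 sequences that define the 3 largest of these clonotypes are given, from the first to the last base of the CDR3 in the contig table, with the bases found in neither the end of the V segment nor the start of the J segment in capitals.
clonotype TRBV3 TRBJ2-7 mouse 2: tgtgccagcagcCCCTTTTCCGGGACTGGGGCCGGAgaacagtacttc
clonotype TRBV20 TRBJ2-7 mouse 2: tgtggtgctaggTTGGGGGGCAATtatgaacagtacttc
clonotype TRBV5 TRBJ2-2 mouse 2: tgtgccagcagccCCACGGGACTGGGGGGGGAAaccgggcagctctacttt

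Since kept cells have 1 TRB contig, a contig of the second segment could be looked for only in cells with 2. Cells with 2 TRB contigs that carried the chain of 1 of these 30 clonotypes numbered 26 in mouse 1 and 118 in mouse 2, and in 0 of them was the other contig that of the second segment. Cells of a clonotype are not independent, so no limit is given for that share. The contig tables held no non-productive contig, so a non-productive second rearrangement would not be listed.

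**Figure D3:**
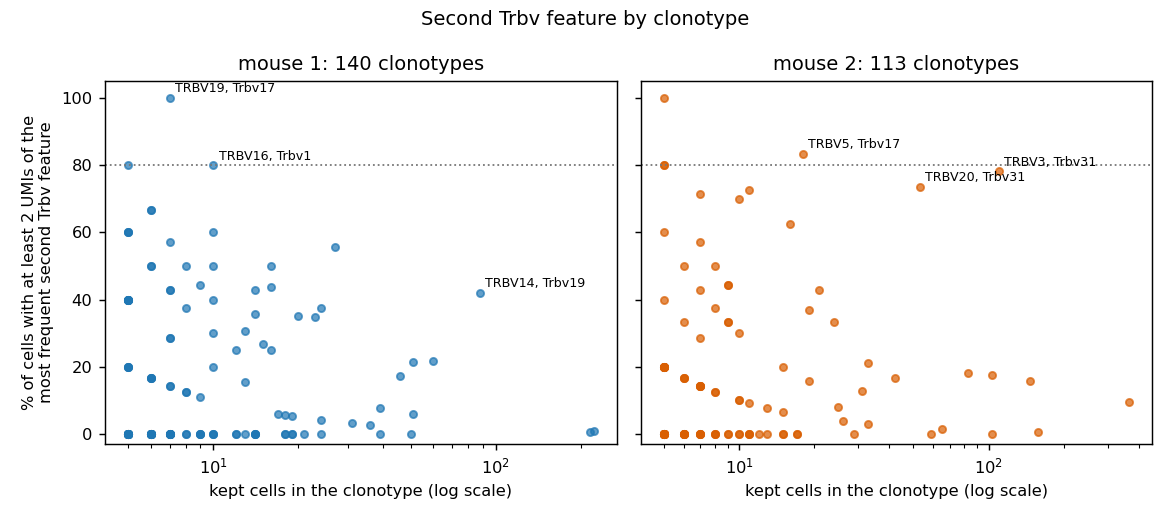
Each point is a clonotype of at least 5 kept cells, placed by its number of cells (horizontal axis, log scale) and the percent of its cells with at least 2 UMIs of its most frequent second Trbv feature (vertical axis); panels are the 2 mice, and the dotted line is at 80%. Points labelled with contig call and second feature include the 110-cell TRBV3 clonotype with Trbv31 at 78.2%.

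Cells with 2 TRB contigs mostly repeated the V gene. In mouse 1, 533 of 708 such cells had the same V call on both contigs (75.3%, 71.9 to 78.4%), and in mouse 2 the number was 507 of 702 (72.2%, 68.7 to 75.5%). Drawing 2 V calls at the frequencies of kept cells gives 16.8% and 13.4%. The J call was the same too in 56 and 62 cells, and the CDR3 nucleotides in 0. In same-V cells the larger contig had a median of 26 and 27 UMIs and the smaller 6 and 5, whereas in different-V cells the medians were 22 and 21 for the larger and 11 in both mice for the smaller. In the 175 and 195 different-V cells, both contigs' own Trbv features had at least 2 UMIs in 86.9% and 90.3%, so 2 contigs were usually matched by 2 transcripts.

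Barcodes without any receptor contig were rich in Trbv transcripts. At least 1 Trbv UMI was found in 91.6% of them in mouse 1 and 93.7% in mouse 2, against 98.6% and 99.3% of kept cells, 81.4% and 81.8% of barcodes with only a TRA contig, and 34.6% and 36.3% of barcodes that failed the filters. They were deeper, with medians of 6851 and 8352 UMIs. In CPM, Trbv summed to 2208 and 2292 in contig-free barcodes, 2056 and 2073 in kept cells, 982 and 959 in TRA-only barcodes and 2464 and 2652 in cells with 2 TRB contigs. Cd4 was detected in 84.1% and 87.7% of contig-free barcodes. Cd3e was detected in 92.9% and 94.7% of them, against 98.5% and 98.8% of kept cells. Cd8a was detected in none of these classes. The lack of a contig therefore did not come with a lack of Trbv transcripts in most of these barcodes.

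More than 1 Trbv feature at 2 UMIs or more was common there. It was found in 40.0% and 48.1% of contig-free barcodes, 16.5% and 20.9% of kept cells, 40.8% and 48.6% of cells with 2 TRB contigs and 8.53% and 10.3% of TRA-only barcodes. At 3000 UMIs per cell the shares were 21.9% and 25.7%, 7.18% and 7.59%, 21.4% and 21.6%, and 4.21% and 2.44%. At least 3 such features were found in 11.0% and 15.3% of contig-free barcodes and 1.10% and 1.75% of kept cells. No barcode past the filters had more than 2 TRB contigs. Whether the contig tables leave out barcodes with more chains was not tested. The gap to kept cells widened with depth: at 12000 UMIs or more the shares with more than 1 feature were 70.4% and 73.3% without a contig and 23.3% and 31.5% in kept cells, while under 3000 UMIs they were 3.53% and 3.30%, and 5.41% and 6.57%.

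**Figure D4:**
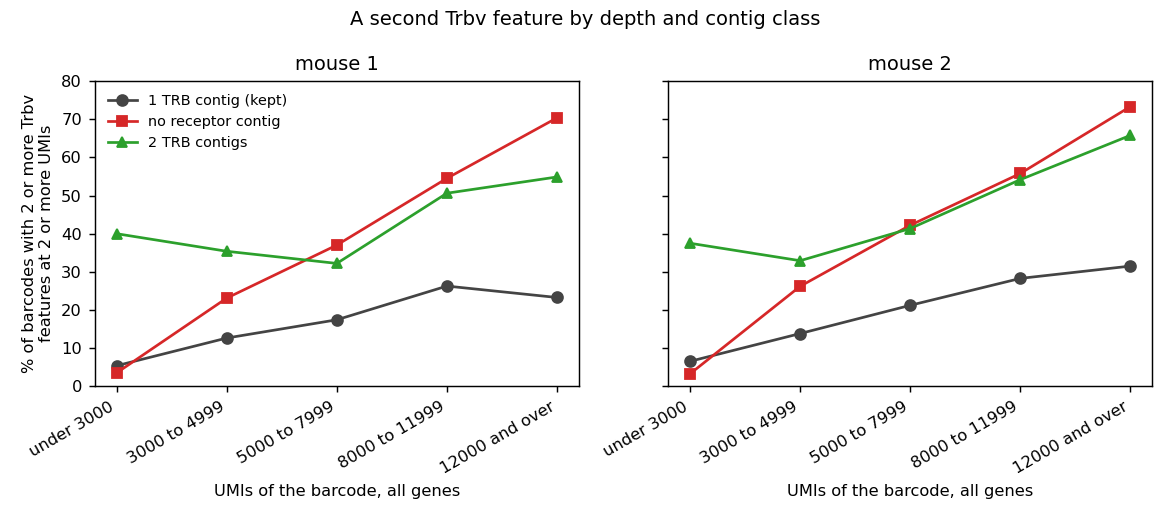
Percent of barcodes with at least 2 Trbv features of 2 UMIs or more (vertical axis) by depth class in UMIs (horizontal axis) for kept cells, contig-free barcodes and cells with 2 TRB contigs; panels are the 2 mice, and the class under 3000 UMIs holds only 20 and 8 cells with 2 TRB contigs. From 12000 UMIs on, contig-free barcodes reach 70.4% and 73.3% and kept cells 23.3% and 31.5%.

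The V segments used by contig-free barcodes differed from those of kept cells. As leading feature, Trbv26 was found in 28.5% of contig-free barcodes with a leading feature against 35.9% of kept cells in mouse 1, and in 11.3% against 32.0% in mouse 2. Trbv23 led 4.85% against 16.8% and 5.30% against 11.8%, and Trbv2 led 1.87% against 3.80% and 2.28% against 4.83%. Trbv12-1 (0.255% against 1.43%, and 0.693% against 1.48%) and Trbv29 (0.936% against 1.36%, and 5.05% against 6.26%) completed the 5 that were lower by the largest amount on average. All 5 were lower in both mice. The 5 that were higher by the largest amount began with Trbv3, which led 3.28% of contig-free barcodes against 1.20% of kept cells in mouse 1 and 10.1% against 2.67% in mouse 2. Trbv1 led 6.30% against 2.53% and 8.96% against 3.46%, Trbv16 8.04% against 3.18% and 6.63% against 2.38%, and Trbv12-2 6.68% against 2.77% and 6.53% against 4.58%. Trbv13-2 led 8.93% against 3.39% in mouse 1 and 3.71% against 3.82% in mouse 2, the only 1 of these 5 that was not higher in both mice.

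**Figure D5:**
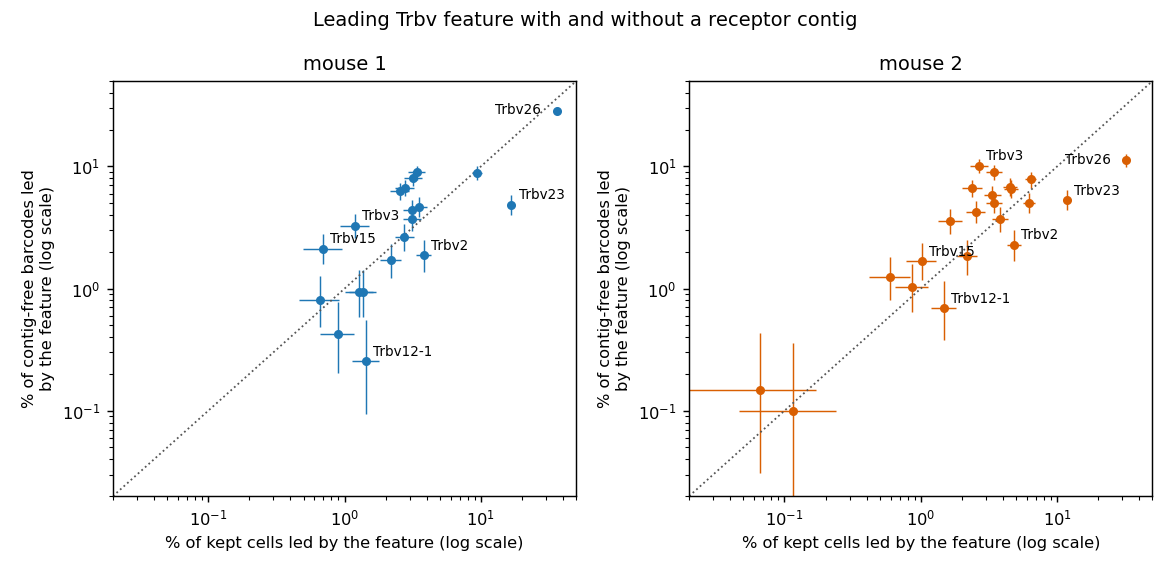
Percent of contig-free barcodes led by each Trbv feature (vertical axis) against the percent of kept cells (horizontal axis); both axes are on a log scale, panels are the 2 mice, points are features led by at least 1 barcode of each class with 95% Clopper-Pearson intervals, and the line marks equal shares. Trbv26 and Trbv23 lie below the line and Trbv3 above it in both mice.

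For a test of these levels, the UMIs of each gene were added up within each class of barcode and mouse, and the sums were fitted over all genes with edgeR's quasi-likelihood test, with mouse as a block and Benjamini-Hochberg adjustment. Of 14072 genes tested, 125 (0.888%) were higher and 128 (0.91%) lower in contig-free barcodes at an adjusted p under 0.05, 253 (1.8%) in all. Of the 35 members 24 passed the filter on low counts, and 6 of these were higher and 2 lower; their median log2 difference was 0.19, and that of all genes tested was 0.00. With 4 sums and 1 residual degree of freedom the test leans on the spread pooled over genes.

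The 6 members that rose were Trbv3 (log2 1.68 ± 0.03, SE), Trbv16 (1.25 ± 0.06), Trbv1 (1.19 ± 0.03), Trbv15 (1.11 ± 0.14), Trbv12-2 (0.68 ± 0.06) and Trbv14 (0.49 ± 0.07), with edgeR adjusted p between 2.48e-05 for Trbv3 and 0.0359 for Trbv14. With DESeq2, Trbv15 did not pass (adjusted p = 0.0562). In CPM, Trbv3 stood at 97.8 against 30.6 in mouse 1 and 243 against 74.1 in mouse 2, and Trbv16 at 212 against 97.4 and 176 against 66.1. The members that fell were Trbv23, at 116 against 386 CPM and 125 against 251 CPM (log2 −1.39 ± 0.15, edgeR adjusted p = 0.0183), and Trbv2, at 30.1 against 39.8 and 36.6 against 52.8 (log2 −0.48 ± 0.05, adjusted p = 0.0154). Trbv26 was at 565 against 624 CPM in mouse 1 and 238 against 601 CPM in mouse 2 (log2 −0.74 ± 0.25) and did not pass (edgeR adjusted p = 0.205). Its log2 difference was −0.14 in mouse 1 and −1.34 in mouse 2. It passed with both classes limited to 2000 to 10000 UMIs (log2 −0.88, edgeR adjusted p = 0.00945), and over the 5 alternatives its adjusted p lay between 0.0006 and 1.00. The members do not vary independently, since each barcode usually has 1 main segment and a larger share of some lowers that of others.

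The receptor's partner genes moved little in the same fit. Of 7 receptor complex genes, which encode the constant regions and the CD3 chains, Trbc1 rose (log2 0.18, edgeR adjusted p = 0.0458) and Cd3d fell (−0.11, adjusted p = 0.0464). Of 10 genes of regulatory T cells, 6 fell and none rose, with Izumo1r at −0.37, Tnfrsf4 at −0.36, Ctla4 at −0.34 and Tnfrsf18 at −0.25, while Foxp3, their lineage factor, was at −0.23 and did not pass. Foxp3 was detected in 16.3% and 22.4% of contig-free barcodes, which were deeper, and in 15.3% and 18.1% of kept cells. Of 12 genes of Th1 and cytotoxic cells 4 fell (Ccl5, Gzmb, Cxcr3 and Gzmk), of 10 follicular helper genes 3 fell (Il21, Sostdc1 and Icos), and among genes of naive cells Igfbp4 and Dapl1 rose and Tcf7 fell. None of the 10 proliferation genes and none of the 10 genes induced by receptor signal passed. The median log2 difference was 0.38 for the proliferation list and −0.09 for the receptor signal list. The proliferation genes summed to 1290 against 1177 CPM in mouse 1 and 1180 against 778 CPM in mouse 2. With DESeq2 the counts that fell were 4, 2 and 2 for the regulatory, Th1 and cytotoxic, and follicular helper lists, and with both classes between 2000 and 10000 UMIs they were 6, 0 and 2.

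Markers of other cell types also moved with this class. Tyrobp, a signalling adaptor of NK and myeloid cells, rose by 2.39 on the log2 scale, and the dendritic cell genes Flt3 and Itgax rose by 3.69 and 2.35. The summed level of the 5 NK cell markers was 60.0 against 17.1 CPM in mouse 1 and 27.8 against 17.2 in mouse 2, and of the 6 dendritic cell markers, of which 1 was at 0 throughout, 15.5 against 4.23 and 6.82 against 4.09. The 5 erythroid markers summed to 237 against 5.91 CPM in mouse 1 and 10.4 against 48.9 in mouse 2, in opposite directions. For the 9 macrophage and monocyte markers the sums were 61.6 against 36.7 and 36.9 against 38.7. C1qa, a macrophage gene, was detected in 1.59% and 2.04% of contig-free barcodes and 0.784% and 1.26% of kept cells. The part of these cells in the Trbv differences was not tested. With the contig-free class limited to barcodes with at least 2 Trbc UMIs, 10 Trbv features were higher and 4 lower, and between 2000 and 10000 UMIs 11 were higher and 4 lower.

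Some pairs of Trbv features in contig-free barcodes were those of clonotypes described for kept cells. Pairs were counted among the 842 and 790 contig-free barcodes with exactly 2 features at 2 UMIs or more. The 318 and 367 barcodes with at least 3 such features were left out. Trbv12-2 with Trbv13-2 was the most frequent pair, in 186 barcodes of mouse 1 and 98 of mouse 2. In mouse 2 the next was Trbv3 with Trbv31, in 50 barcodes (6.33%), and Trbv5 with Trbv17 (14, 1.77%) and Trbv20 with Trbv31 (13, 1.65%) were also present. These are the pairs of the 110-cell, 18-cell and 53-cell clonotypes of that mouse. Pairs of no clonotype named here were more frequent in mouse 2 than the last 2 of these, such as Trbv12-2 with Trbv13-3 (27) and Trbv13-3 with Trbv26 (23). In mouse 1 the next were Trbv26 with Trbv31, in 55 barcodes, and Trbv1 with Trbv26, in 25, which are the pairs of no clonotype named here. Trbv14 with Trbv19, the pair of the 88-cell clonotype, was found in 22 barcodes. These pairs were picked after the clonotypes had been seen, and without a contig the barcodes could not be assigned to a clonotype.

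Kept cells with a second Trbv segment also differed from kept cells without one in genes outside the receptor segments. In the same kind of fit, with all receptor V, D and J segments left out, 249 of 13076 genes (1.9%) were higher and 344 (2.63%) lower in cells with a second segment by edgeR's quasi-likelihood test at an adjusted p under 0.05, 593 (4.54%) in all. The pooled spread carried 81.8 prior degrees of freedom against 1 residual, so these calls rest almost wholly on the spread over genes. Because cells with a second segment were deeper, the regulatory, receptor signal, receptor complex, naive and proliferation lists are also given with the other cells drawn to the same depth.

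Genes of regulatory T cells were lower in cells with a second segment. Of the 10 on the list 9 fell and none rose, and at matched depth 8 fell. Foxp3 was at 51.9 against 108 CPM in mouse 1 and 80.3 against 133 CPM in mouse 2 (log2 −0.86 ± 0.05). The integrin gene Itgae was at 21.8 against 50.9 and 33.6 against 66.8 CPM (−1.08 ± 0.07), and Il2ra, a subunit of the IL-2 receptor, at −0.83. Of 10 genes induced by receptor signal 6 fell and none rose, with Nr4a1 at −0.93, Tnfrsf9 at −0.76 and Egr1 at −0.58. At matched depth 4 of them fell. Of the 7 receptor complex genes Trbc1 (−0.40), Trbc2 (−0.18) and Trac (−0.15) fell, and 3 of the 7 fell at matched depth.

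Of 10 genes of naive cells 6 rose, with Igfbp4 at 0.49, Ccr7 at 0.34 and Tcf7 at 0.29, and 3 rose at matched depth. Igfbp4 was at 54.4 against 57.8 CPM in mouse 1 and 133 against 74.1 CPM in mouse 2, so its rise rested on mouse 2. All 10 proliferation genes rose, with a median of 0.30, but at matched depth none rose, 1 fell and the median was −0.11. No gene of this list was thus higher once depth was matched. With DESeq2, 7 regulatory and 2 receptor signal genes fell, and 1 naive and 3 proliferation genes rose. In the main fit 1 of 12 Th1 and cytotoxic genes rose and 5 fell, and 3 of 10 follicular helper genes rose and 1 fell. The 12 Th1 and cytotoxic genes summed to 11285.7 against 15744.4 CPM in mouse 1 and 14538.5 against 14227.2 in mouse 2, in opposite directions. Values at matched depth are not given for these lists.

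The single genes with the largest differences are given by a rule on level and size. The largest rise was that of 5830405F06Rik, the non-coding gene over Trbv4 and Trbv5, at 45.6 against 9.16 CPM in mouse 1 and 36.3 against 8.33 CPM in mouse 2 (log2 2.22 ± 0.10). With the contig named by sequence, so that Trbv4 in TRBV10 cells was no second segment, it was 0.47. Then came Ly6c1, a surface protein of memory and activated T cells, at 0.86, Plac8 at 0.67, Hmmr at 0.58, Ces2c at 0.58, Gm43305 at 0.57, the DNA glycosylase gene Neil3 at 0.56 and the mitotic activator gene Cdc20 at 0.56. At matched depth Hmmr (0.14, edgeR adjusted p = 0.578), Neil3 (0.16, adjusted p = 0.595) and Cdc20 (0.18, adjusted p = 0.246) no longer passed, and Gm43305 was at 0.29, Ly6c1 at 0.55 and Plac8 at 0.44. With DESeq2, Plac8, Hmmr, Ces2c, Neil3 and Cdc20 did not pass, with adjusted p between 0.0525 for Cdc20 and 0.597 for Neil3. The lowest were Hbb-bs, a globin gene, at −1.79, Epcam at −1.15, Itgae at −1.08, Rln3 at −1.01, Cep112 at −0.99, Nr4a1 at −0.93, Klrg1, an inhibitory receptor of differentiated T cells, at −0.91, and Penk, the enkephalin precursor, at −0.87. Hbb-bs was at 2.62 against 4.15 CPM in mouse 1 and 13.4 against 51.3 CPM in mouse 2, and it turned to 0.52 at matched depth (edgeR adjusted p = 0.281; over its 7 alternatives the adjusted p lay between 9.71e-46 and 1.00). With DESeq2, Hbb-bs (adjusted p = 0.969) and Rln3 (0.111) did not pass.

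Markers of other cells differed between these classes mostly in 1 mouse. The 5 neutrophil markers summed to 4.53 against 28.5 CPM in mouse 1 and 0.308 against 0.742 in mouse 2, and the 4 gamma delta T cell genes to 3.57 against 26.0 CPM in mouse 1 and 8.00 against 3.71 in mouse 2. The 8 B cell markers, of which 1 was at 0 throughout, summed to 149 against 165 and 171 against 197 CPM. Their part in the differences was not tested.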

How the data were processed

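The deposited values are UMI counts per gene and barcode and contig tables, made by the authors with Cell Ranger 7.0.1, per the submitters' processing notes, which name the builds mm10 and GRCm38; settings are not given in the sources used here. Counts were used as deposited. Barcodes were kept at 500 genes or more, 10% mitochondrial UMIs or less and 1 TRB contig. Contig V regions were compared with GENCODE M21 segments by 15-base words. Shares have Clopper-Pearson 95% intervals. Sums per mouse and class were fitted with edgeR 4.0.16 (TMM, filterByExpr, quasi-likelihood, mouse as block because both classes come from the same mouse) in R 4.3.3, with DESeq2 1.42.0 as an alternative; scripts were tested on simulated data. Thinning used 3000 UMIs. The members and lists were chosen with earlier results of these data known. Named V calls have at least 100 kept cells in each mouse, or are the 3 lowest and 3 highest of those with 20. Named second segments are the 6 most frequent pairs and clonotypes of at least 5 cells with 80% sharing. Named Trbv features in contig-free barcodes are the 5 largest rises and falls and all called. Named genes with a second segment are list members and the 8 largest changes each way with 20 CPM in a class. Alternatives varied UMI minimums, ties, clonotype weight, filters, depth, normalization, block and V naming. The result for 1 gene of the lists is not reported here.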

Additional observations from a re-analysis of the deposited data

How the results depend on the processing

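The overall match (97.9%) was 97.6, 98.2 and 98.7% with a leading feature of at least 1, 3 and 5 UMIs, 97.0% with ties as mismatches, 97.5% with clonotypes counted once, 98.0% with stricter cell filters and 98.8% with contigs named by sequence, and 97.9 to 98.0% for 1 mouse alone. Either feature of the combined call counted as a match in each of these settings. The TRBV5 level relative to TRBV26 (0.328) was 0.277 per 10000 UMIs, 0.276 thinned and 0.305 by clonotype, and that of TRBV1 (1.72) was 1.52, 1.48 and 1.86. The combined call (0.440) moved less than the spread between mice. The share with a second segment (17.9%) was 43.0, 9.60 and 3.31% at a minimum of 1, 3 and 5 UMIs and 8.04% thinned, and 16.2 to 19.5% for 1 mouse alone.

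The 253 genes called between contig-free barcodes and kept cells became 109 with DESeq2, 1171 without a filter on low counts, 844 with at least 2 Trbc UMIs, 464 between 2000 and 10000 UMIs and 0 without the mouse block. The 6 Trbv features higher became 5 with DESeq2, 11 without a filter, 10 with Trbc UMIs, 11 at like depth and 0 without the block, and the 2 lower became 2, 6, 4, 4 and 0. The 593 genes called for second segments became 60 with DESeq2 and 1 without the block, and the remaining settings stayed within 1.5 times. The block pairs classes by mouse. With edgeR and the block, 2376 genes of the first comparison had an unadjusted p under 0.05. Hbb-bs reversed, to 0.52, at matched depth. Leaving out a mouse left no residual degree of freedom and gave no count. Except where a setting itself tests fewer or other barcodes, the cause was not tested. The share of kept cells whose second-ranking feature had at least 2 UMIs differed with depth, at 5.41% and 6.57% in the 2 mice under 3000 UMIs, 26.3% and 28.3% from 8000 to 12000 and 23.3% and 31.5% above.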

Other observations

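Contigs were also listed for 615 barcodes of mouse 1 and 512 of mouse 2 that the expression tables did not hold, and these were not used. Barcodes with a TRA contig alone numbered 258 and 203, with a mean of 4.47 and 5.21 Trbv UMIs, against 13.3 and 14.7 in kept cells, and medians of 4007.5 and 4768 UMIs. Foxp3 was detected in 24.0% and 29.1% of them, against 15.3% and 18.1% of kept cells.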
